A study of Homo sapiens with 12 samples.

Results

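Mitochondrial ribosomal proteins are the nuclear-encoded protein subunits of the mitochondrial ribosome. The set was taken from the gene symbols, as MRPL or MRPS followed by a number and, for some MRPS genes, a letter from A to C. It held 78 of the 40929 symbols in the count tables, 49 with MRPL symbols for the large subunit and 29 with MRPS symbols for the small subunit. The 3 pseudogene symbols of the family (MRPL45P2, MRPS31P5 and MRPL42P5) were left out. All 78 genes passed the filter on low counts and were among the 15104 genes tested.

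RNA was sequenced from MDA-MB-231, a line of human triple-negative breast cancer with a mesenchymal character, grown in RPMI with serum. The 4 groups of 3 libraries were LGCAR (5 mM glucose with 25 µM cariporide), LG (5 mM glucose alone), CAR (10 mM glucose with 25 µM cariporide) and NG (10 mM glucose alone). Each treatment lasted 48 h, and all groups carried the wild-type genotype of the same line. Cariporide inhibits NHE1, the sodium-proton exchanger of the plasma membrane. The labels name a single cell line, so the values describe this line only.

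The mitochondrial ribosome translates the few mRNAs of mitochondrial DNA, all of which code for core subunits of the respiratory chain and ATP synthase. Its ribosomal RNA is made in the mitochondrion, while all of its proteins are made in the cytosol from nuclear genes and imported. The small subunit reads the mRNA and the large subunit joins the amino acids, and both need their proteins in fixed proportion. Promoters of such genes are known to be bound by GABP (an ETS factor), NRF1 and YY1.

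Promoters of the members held certain short motifs at other shares than promoters at large. The letters CCGGAAG, the core that ETS factors such as GABP bind, lay on either strand of 29 of the 70 member promoters in the RefSeq table (41.4%), against 14.2% of the 15843 promoters of protein-coding genes and 10.7% of all 27305 promoters. The YY1 letters AAGATGGCG lay in 18.6% of member promoters, against 2.74% of protein-coding and 1.85% of all promoters. The NRF1 motif, a longer palindrome rich in G and C, lay in 11.4% of member promoters, against 8.58% and 6.28%. The E-box letters CACGTG, bound by MYC among others, lay in 10.0%, against 8.88% and 7.43%. Each window ran from 250 bases before the start of the gene to 50 after it, and both strands were searched. A match is only a run of letters and does not show that a factor binds.

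ETS letters were found in 40.5% of 42 large-subunit promoters and 42.9% of 28 small-subunit promoters. The YY1 letters were in 19.0% of large-subunit and 17.9% of small-subunit promoters. The 13 promoters of members called lower in LGCAR against NG held the ETS letters in 46.2% of cases, and the other 57 in 40.4%. For the other motifs the called members had the smaller share, with 15.4% against 19.3% for YY1, 7.69% against 12.3% for NRF1 and 0 of 13 against 12.3% for the E-box. These shares are descriptions, and no test was made of them.

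**Figure D1:**
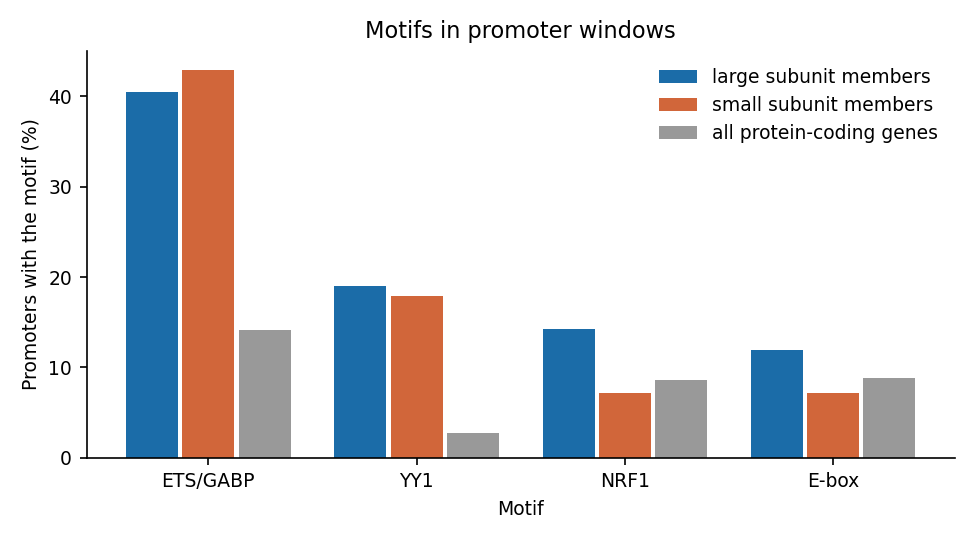
Bars give the percentage of promoter windows that hold each motif, for the large-subunit members (42), the small-subunit members (28) and all protein-coding genes (15843). The ETS/GABP bars stand at 40.5% and 42.9% for the subunits and 14.2% for all protein-coding genes.

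The stretches below show how these letters sit near the start of 5 members called lower in LGCAR against NG. They are the 110 bases before the start, from RefSeq on GRCh38.p14, read 5′ to 3′ along the strand of the gene. Capitals mark each ETS, YY1 or NRF1 match that lies wholly within the stretch.
MRPL3 (chr3:131502972-131503081, minus strand): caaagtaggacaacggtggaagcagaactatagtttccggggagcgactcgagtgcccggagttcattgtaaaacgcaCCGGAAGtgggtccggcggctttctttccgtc
MRPS31 (chr13:40771191-40771300, minus strand): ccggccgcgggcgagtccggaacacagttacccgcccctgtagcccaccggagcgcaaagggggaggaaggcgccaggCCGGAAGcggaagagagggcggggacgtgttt
MRPS23 (chr17:57850045-57850154, minus strand): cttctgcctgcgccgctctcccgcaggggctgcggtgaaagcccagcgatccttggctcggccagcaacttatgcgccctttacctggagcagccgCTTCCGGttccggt
MRPL52 (chr14:22829777-22829886, plus strand): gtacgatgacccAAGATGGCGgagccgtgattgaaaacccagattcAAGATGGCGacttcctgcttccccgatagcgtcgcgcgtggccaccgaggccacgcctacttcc
MRPS9 (chr2:105037959-105038068, plus strand): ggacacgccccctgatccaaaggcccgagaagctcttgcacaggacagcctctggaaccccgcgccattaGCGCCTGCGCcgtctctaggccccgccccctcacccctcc
In MRPL3 and MRPS31 the ETS letters began at the same place, position -32 counted from -1 as the base before the start. MRPS23 held them on the opposite strand from position -14. MRPL52 held the YY1 letters at positions -98 and -64, both on the strand of the gene. It also held the ETS letters on the opposite strand from position -5, a match that crosses the start and so is not marked in the stretch. MRPS9 held the NRF1 letters on the opposite strand, from position -40.

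The members lay on 21 chromosomes. Of the 78, 17 (21.8%) had the start of a protein-coding gene read in the other direction within 1000 bases upstream of their own start. This held for 7.37% of 19969 protein-coding genes in GENCODE 29. Pairs whose starts lie the other way round, so that the genes overlap, were not counted. One such pair was made of 2 members, MRPS11 and MRPL46, whose starts on chromosome 15 lay 34 bases apart in that annotation. Of the other partners 2 code for subunits of respiratory complex I, NDUFS6 facing MRPL36 at 34 bases and NDUFB5 facing MRPL47 at 36 bases. The rest included TCP1 (facing MRPL18), IGHMBP2 (MRPL21) and SLC7A7 (MRPL52). Overlap with other genes limits some counts: for 10 members at least 10% of the exon bases lay in exons of some other gene of the same strand, and for 15 in exons of the opposite strand. Use of the strand in counting is not given.

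The libraries held 18069004 to 24837409 counts, and the members took 0.262% to 0.316% of them. The label was checked by level only: VIM, CD44, AXL and MSN averaged from 657 to 1720 CPM (counts scaled to the size of the library), ERBB2 59.4 and EPCAM 11.7, while ESR1 had at most 4 counts in a library and PGR had 0 in all 12. Cytosolic ribosomal RNA took 9.32%, 9.84% and 11.5% of counts in LGCAR, 9.06%, 9.0% and 7.91% in LG, 7.10%, 8.53% and 7.98% in CAR, and 11.2%, 9.45% and 7.83% in NG. Whether the 3 libraries of a group were separate cultures is not given, and p-values measure only the spread between these libraries, which may be technical.

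Levels were compared between genes as CPM per kb of the annotated transcript. They spanned 3.43 to 79.4 CPM per kb, a 23.2-fold range, with a median of 26.0 in the large subunit and 23.2 in the small subunit. The highest small-subunit levels belonged to MRPS24 (79.4 ± 6.97 CPM per kb, SD over 12 libraries), MRPS10 (71.5 ± 4.22) and MRPS15 (53.02 ± 4.8), all counterparts of proteins of the bacterial small subunit. Their large-subunit equals were MRPL33 (78.2 ± 6.49), MRPL14 (72.7 ± 4.62) and MRPL12 (55.1 ± 4.02), the last of which forms the stalk that recruits translation factors. These levels carry a limit for MRPL12, since 68.2% of its exon bases are also exonic in a gene of its strand, and for MRPS24 and MRPL33, where 23.2% and 21.1% are.

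At the low end stood MRPL42 (3.43 ± 0.131 CPM per kb), MRPS11 (4.41 ± 0.548), MRPS14 (6.05 ± 0.493) and MRPL22 (7.0 ± 0.607), the last a protein that lines the exit tunnel. The place of MRPL42 rests on the length used for it, 15582 bases, since its counts themselves averaged 53.4 CPM. Length also bears on MRPS11, MRPL22 and MRPS14, with 3644, 3176 and 2115 bases against a member median of 1458.5. In the order of levels, 75 of 77 neighbours overlapped in their ranges over the 12 libraries, so most ranks next to each other could not be told apart. Over the 12 libraries a member varied by a median coefficient of variation of 7.83%, against 6.95% in the other 8422 tested genes of the same range of mean CPM.

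**Figure D2:**
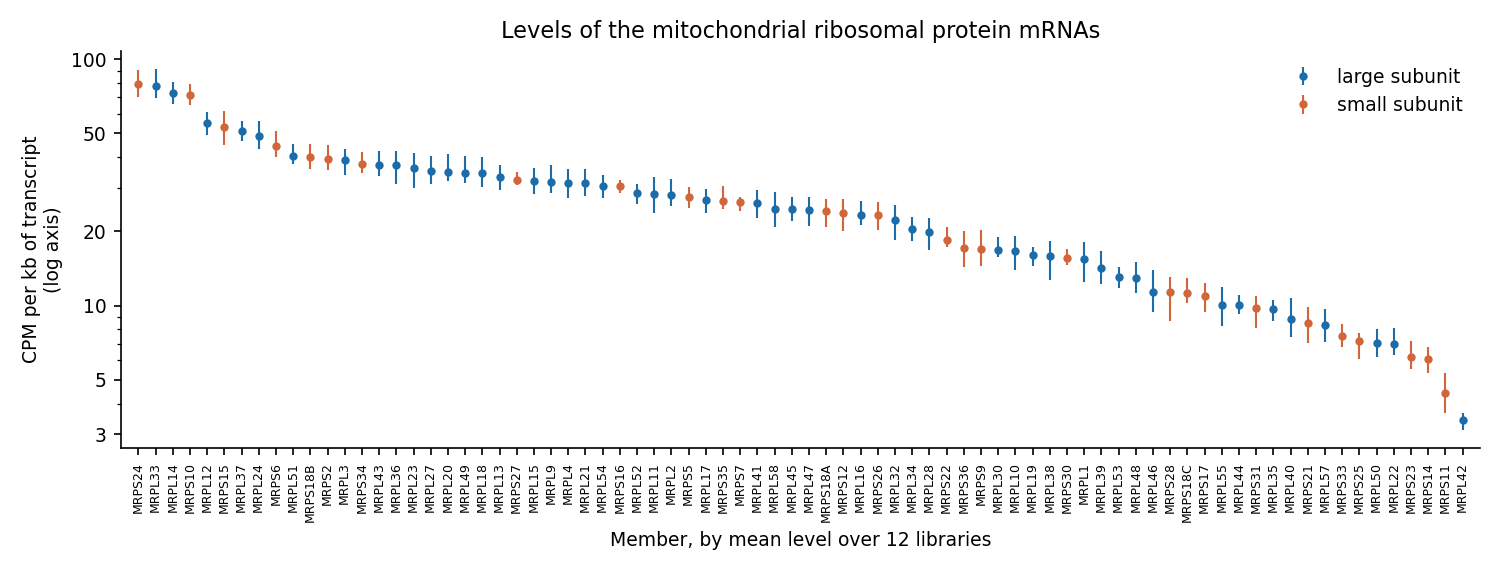
Each point is the mean level of a member over 12 libraries, in CPM per kb of transcript on a log axis, and each line its lowest and highest library. Large-subunit and small-subunit members are mixed along the whole range from 3.43 to 79.4.

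A trio of members, MRPS18A, MRPS18B and MRPS18C, carries the name of the bacterial S18 protein, and they differed in level. MRPS18B stood at 39.96 ± 2.82 CPM per kb, MRPS18A at 24.3 ± 1.83 and MRPS18C at 11.3 ± 0.840. In the assembled ribosome MRPS18B and MRPS18C belong to the small subunit, while MRPS18A belongs to the large subunit in spite of its symbol, as does MRPS30. MRPS36 is now known as a subunit of the 2-oxoglutarate dehydrogenase complex. Genes of the opposite strand cover 47.0% of the exon bases of MRPS18A and 40.2% of those of MRPS18C, which limits their counts.

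The combination of low glucose and cariporide gave the most calls, and all of them were downward. In LGCAR against NG, 14 of 78 members (17.9%) passed edgeR's quasi-likelihood test at an adjusted p under 0.05, all lower in LGCAR. Genes that pass this test are named as called in what follows. Among all 15104 genes 8.75% passed, 4.12% as lower and 4.63% as higher. DESeq2 called 24 members and 1849 of all genes, and limma-voom 10 members and 1161 of all genes. The log2 fold change was below 0 for 76 of 78 members, against 48.3% of all genes, and the median was -0.18 for the members and 0.01 for all genes. The CPM of all 3 LGCAR libraries lay below all 3 NG libraries for 50 members, against 17.5% of all genes.

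That count of 14 depended on single libraries. Without NG 3 or without LGCAR 1 it was 0, without NG 2, LGCAR 2 or LGCAR 3 it was 3, and without NG 1 it was 24. The share of all genes called in these fits is not given here. These counts therefore do not show a dependence particular to the members. With each of these libraries left out in turn, 72 to 77 members were below 0 and the median over all members ran from -0.22 to -0.15. With LGCAR and NG fitted alone, 46 members and 23.2% of all genes were called. Once the trend over GC content and transcript length was taken out, a setting chosen after seeing the data, the members' median was -0.12, 69 were below 0 and 10 were called. The share of all genes called in that setting is not given here either. In bulk RNA a lower level from fewer cells that make a transcript and from less transcript per cell cannot be told apart.

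**Figure D3:**
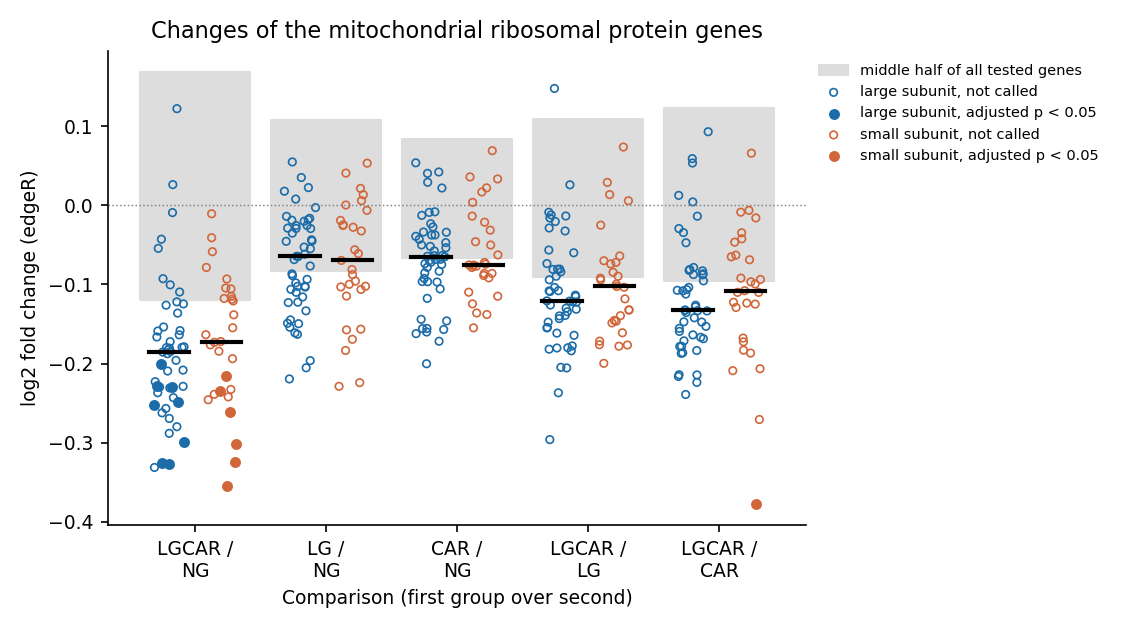
Each circle is the edgeR log2 fold change of a member, for the comparisons LGCAR over NG, LG over NG, CAR over NG, LGCAR over LG and LGCAR over CAR. Filled circles passed an adjusted p of 0.05, black bars are medians, grey boxes run from the lower to the upper quartile of all tested genes, and the LGCAR over NG medians lie at -0.19 for the large and -0.17 for the small subunit, below a box that starts at -0.12.

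Large-subunit proteins gave 8 of the 14 calls (16.3% of 49). MRPL4 (chr19:10251951-10260055, plus strand), the counterpart of a bacterial protein that reaches into the exit tunnel, had 40.2, 39.9 and 42.1 CPM in LGCAR and 47.2, 50.8 and 52.4 CPM in NG. All LGCAR values of MRPL4 lay below all NG values (log2 fold change -0.30 with SE 0.0633, adjusted p 0.0131 by edgeR). LG had 42.3, 46.2 and 47.6 CPM and CAR 50.4, 44.9 and 46.5 CPM of it, with both means between those of LGCAR and NG. MRPL38 (chr17:75898644-75904884, minus strand), a protein found in mitochondrial but not bacterial ribosomes, had 24.02, 26.95 and 29.5 CPM in LGCAR and 33.4, 32.7 and 34.6 CPM in NG. The groups did not overlap (log2 fold change -0.33 with SE 0.0687, adjusted p 0.0131 by edgeR), and LG and CAR averaged 30.02 ± 0.843 and 30.1 ± 1.07 CPM (SD, n = 3 each). Other genes cover 37.5% of the exon bases of MRPL38, on its own strand, and 13.8% of those of MRPL4, on the opposite strand.

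The other 6 large-subunit calls were smaller or less certain. MRPL1, which forms the mobile stalk where spent tRNA leaves, averaged 20.6 ± 1.79 CPM in LGCAR and 25.8 ± 1.58 CPM in NG (log2 fold change -0.33 with SE 0.0854, adjusted p 0.0305 by edgeR). MRPL3, a core protein near the site of peptide bond formation, averaged 60.98 ± 3.44 CPM in LGCAR and 70.0 ± 1.52 CPM in NG (log2 fold change -0.20 with SE 0.0605, adjusted p 0.0497 by edgeR; all means ± SD, n = 3). MRPL52, MRPL21, MRPL18 and MRPL24 had log2 fold changes of -0.23, -0.25, -0.25 and -0.23, with adjusted p from 0.0352 to 0.0479. The calls of MRPL3 and MRPL18 were lost whichever of the 6 libraries was left out.

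Small-subunit proteins gave the other 6 calls (20.7% of 29). MRPS9 (chr2:105038069-105099960, plus strand), the counterpart of a bacterial protein at the head of the subunit, had 21.7, 23.6 and 22.7 CPM in LGCAR and 26.1, 28.3 and 30.5 CPM in NG. It had 22.9, 24.1 and 25.8 CPM in LG and 27.7, 25.1 and 25.6 CPM in CAR. The LGCAR and NG values did not overlap (log2 fold change -0.32 with SE 0.0726, adjusted p 0.0172 by edgeR). MRPS31 (chr13:40729128-40771190, minus strand), a protein with no bacterial counterpart, had 11.9, 13.2 and 12.6 CPM in LGCAR and 15.5, 15.4 and 15.4 CPM in NG. The NG libraries had an SD of 0.0437 CPM and lay above every LGCAR library (log2 fold change -0.30 with SE 0.0718, adjusted p 0.0216 by edgeR). LG held 13.6, 13.9 and 14.1 CPM of MRPS31, also below NG throughout, though that difference was not called (adjusted p 0.299).

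MRPS11 (chr15:88467708-88480776, plus strand), which lies on the platform of the subunit, had 13.4, 13.4 and 14.1 CPM in LGCAR and 19.4, 15.7 and 17.3 CPM in NG. NG spread the most, yet its lowest library lay above the highest of LGCAR (log2 fold change -0.36 with SE 0.0854, adjusted p 0.0225 by edgeR). Its divergent neighbour MRPL46, named for that position after its values were seen, averaged 10.3 ± 0.664 CPM in LGCAR and 12.97 ± 1.55 CPM in NG (SD, n = 3 each) and was not called (log2 fold change -0.33 with SE 0.108, adjusted p 0.0615 by edgeR). MRPS12 (chr19:38930944-38933168, plus strand), a protein of the decoding centre, had 24.5, 26.4 and 28.7 CPM in LGCAR and 30.5, 31.6 and 33.2 CPM in NG. Here too the groups did not overlap (log2 fold change -0.26 with SE 0.0642, adjusted p 0.0250 by edgeR), with the limit that 16.3% of its exon length lay opposite SARS2. MRPS2 and MRPS23 completed the group, with log2 fold changes of -0.23 (adjusted p 0.0262) and -0.22 (adjusted p 0.0399).

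**Figure D4:**
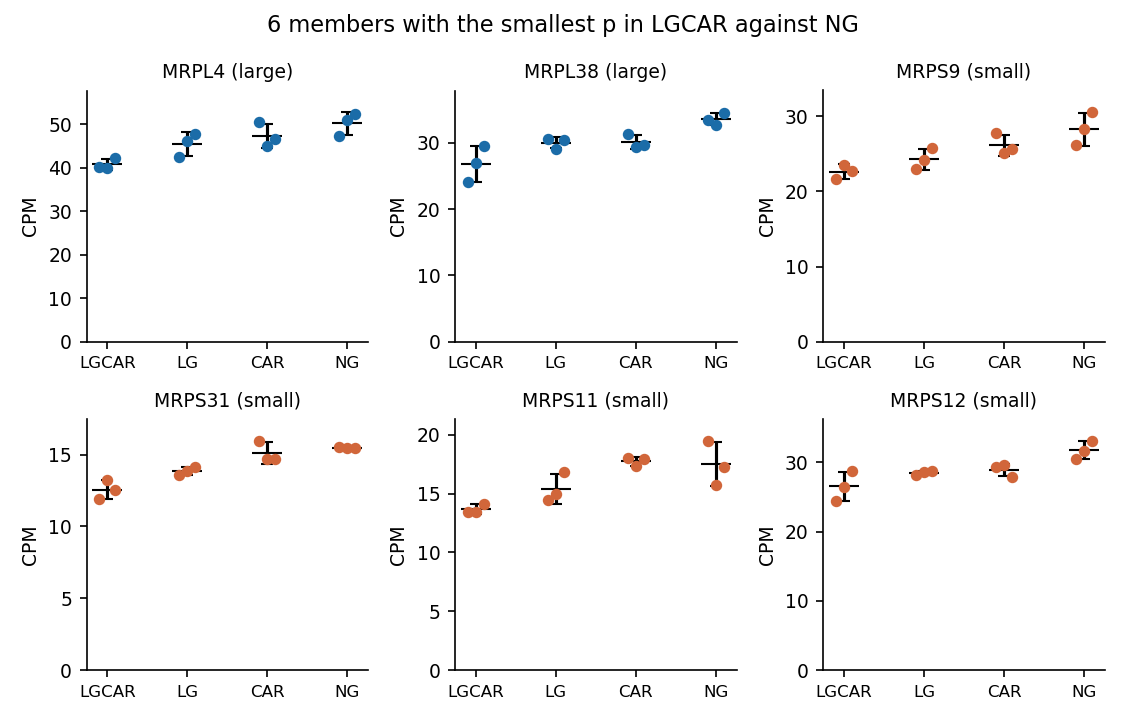
Points are CPM per library for the 6 members with the smallest p in LGCAR against NG, bars the mean ± SD (n = 3). In each panel all LGCAR points lie below all NG points, and the means of LG and CAR lie in between, except that of CAR for MRPS11.

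Not every member followed. MRPL19, named after its values were seen, was the only member whose LGCAR libraries all lay above NG: it had 59.2, 60.4 and 59.3 CPM in LGCAR and 57.9, 54.3 and 52.3 CPM in NG, a difference that was not called (log2 fold change 0.12 with SE 0.0654, adjusted p 0.227 by edgeR). Of all genes, 20.7% lay wholly above NG in this comparison. MRPL42 averaged 53.4 ± 4.22 CPM in LGCAR and 52.4 ± 0.693 CPM in NG (log2 fold change 0.03, below 0 without LGCAR 2 or LGCAR 3 and with the trend on GC content and length removed). MRPS14 averaged 12.6 ± 0.349 CPM in LGCAR and 12.98 ± 1.27 CPM in NG (SD, n = 3 each; log2 fold change -0.04, above 0 without NG 3, with ribosomal RNA content as a covariate, and with that trend removed). Among the paralogs, MRPS18A had a log2 fold change of -0.19, MRPS18B of -0.15 and MRPS18C of -0.12, with adjusted p of 0.0888, 0.127 and 0.371. MRPS30 and MRPS36 stood at -0.11 and -0.18 and were not called either.

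The 6 members named above as the highest in CPM per kb all had log2 fold changes below 0 in LGCAR against NG, and none passed the edgeR test, while DESeq2 called MRPL12, MRPL14, MRPS15 and MRPS24. MRPL12 averaged 52.2 ± 2.01 CPM in LGCAR and 60.4 ± 2.40 CPM in NG (log2 fold change -0.21 with SE 0.0654, adjusted p 0.0560 by edgeR). For MRPS24 the means were 50.8 ± 1.06 and 60.03 ± 4.01 CPM in LGCAR and NG (adjusted p 0.0511), and for MRPL14 65.2 ± 2.01 and 73.9 ± 3.03 CPM (adjusted p 0.0640). MRPS10, the highest in CPM, averaged 144 ± 6.05 CPM in LGCAR and 156 ± 10.6 CPM in NG, and these libraries overlapped (adjusted p 0.234). All means are ± SD with n = 3 each.

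Low glucose alone gave no call. In LG against NG 0 of 78 members passed edgeR's test, where 1.73% of all genes did (0.728% as lower). At an unadjusted p under 0.05 there were 13 members (16.7%), all lower in LG, close to the 15.2% of all genes, and DESeq2 called 1 and limma-voom 0. The median log2 fold change was -0.07 for the members and 0.01 for all genes, and 67 of 78 were below 0. All LG libraries lay below all NG libraries for 9 members, against 9.51% of all genes, and above them for 1 (MRPL42), against 9.86%. The smallest p belonged to MRPS23, which had 31.8, 31.1 and 34.3 CPM in LG and 35.7, 37.9 and 40.3 CPM in NG (log2 fold change -0.23 with SE 0.0602, adjusted p 0.0656 by edgeR). DESeq2 called it at an adjusted p of 0.0479, and edgeR at 0.0305 without LG 3. MRPS9 came next (log2 fold change -0.22 with SE 0.0710, adjusted p 0.134 by edgeR).

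Cariporide at 10 mM glucose gave no call. In CAR against NG edgeR gave 0 calls among the 78 members and 0% among all genes, DESeq2 and limma-voom gave 0 members, and 6 members (7.69%) had an unadjusted p under 0.05, all lower in CAR, against 4.53% of all genes. The median was -0.07 for the members and 0.00 for all genes, with 67 members below 0, 4 wholly below NG, against 4.67% of all genes, and 0 wholly above, against 4.44%. MRPS22, a protein of the small subunit without a bacterial counterpart, had 29.2, 26.9 and 27.3 CPM in CAR and 29.8, 30.8 and 32.4 CPM in NG. These did not overlap, and the test did not pass (log2 fold change -0.15 with SE 0.0596, adjusted p 0.894 by edgeR). MRPS27, an RNA-binding protein of the pentatricopeptide repeat family, averaged 86.8 ± 1.05 CPM in CAR and 94.6 ± 4.02 CPM in NG (SD, n = 3 each; log2 fold change -0.12 with SE 0.0482, adjusted p 0.894 by edgeR).

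Cariporide at 5 mM glucose gave no call among the members either. In LGCAR against LG 0 of 78 members passed edgeR's test, against 0.00662% of all genes. At an unadjusted p under 0.05 there were 16 lower members and 1 higher (21.8% in all), against 11.9% of all genes, and DESeq2 and limma-voom called 0. The median was -0.11 for the members, 72 of them were below 0, and 19 lay wholly below LG, against 10.5% of all genes. MRPL19 again lay wholly above, as did 10.9% of all genes. MRPL3 had 57.8, 64.6 and 60.5 CPM in LGCAR and 64.4, 68.9 and 73.9 CPM in LG, with LGCAR 2 above LG 1 (log2 fold change -0.18 with SE 0.0605, adjusted p 0.359 by edgeR). MRPL32, which is cut by a mitochondrial protease before it joins the ribosome, had 20.98, 19.1 and 20.7 CPM in LGCAR and 24.3, 22.1 and 25.2 CPM in LG (log2 fold change -0.24 with SE 0.0820, adjusted p 0.368 by edgeR).

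Low glucose in the presence of cariporide gave 1 call, MRPS11. In LGCAR against CAR 1 of 78 members passed edgeR's test (1.28%), and of all genes 1.65%, 0.675% as lower and 0.973% as higher. MRPS11 had 13.4, 13.4 and 14.1 CPM in LGCAR and 18.02, 17.3 and 17.9 CPM in CAR, with no overlap (log2 fold change -0.38 with SE 0.0846, adjusted p 0.0349 by edgeR). The call was lost whichever of the 6 libraries was left out, at adjusted p of 0.0567 to 0.141. The median was -0.12 for the members and 0.01 for all genes, 72 members were below 0, and 28 lay wholly below CAR, against 11.9% of all genes. MRPS27 was the one that lay wholly above, with 13.4% of all genes.

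The effect of cariporide was not shown to differ between the glucose levels. In the interaction, the change with cariporide at 5 mM minus that at 10 mM glucose, edgeR, DESeq2 and limma-voom called 0 members, 1 had an unadjusted p under 0.05 (1.28%, against 3.13% of all genes), and 0.00662% of all genes passed with edgeR. The member medians were -0.05 for the large and -0.06 for the small subunit. The smallest p belonged to MRPS27 (interaction log2 fold change 0.15 with SE 0.0684, adjusted p 0.9999 by edgeR) and MRPS22 (0.16, SE 0.0854, adjusted p 0.9999). LGCAR had the lowest mean CPM of the 4 groups for 69 members, against 30.6% of all genes, and NG the highest for 59, against 27% of all genes.

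The medians of the subunits were set side by side, with no test of their difference. The median log2 fold changes were -0.19 and -0.17 in LGCAR against NG, -0.06 and -0.07 in LG against NG, -0.06 and -0.08 in CAR against NG, -0.12 and -0.10 in LGCAR against LG, and -0.13 and -0.11 in LGCAR against CAR, with the large subunit first in each pair. With the trend on GC content and length removed, the small-subunit median in LGCAR against NG was -0.089. With MRPS30 and MRPS18A counted as large and MRPS36 left out, the LGCAR against NG medians were -0.19 and -0.17 as well. The summed CPM of the large subunit over that of the small was 1.45 ± 0.00550 in LGCAR, 1.45 ± 0.0217 in LG, 1.47 ± 0.0216 in CAR and 1.47 ± 0.00246 in NG (SD, n = 3 each). The LGCAR ratios, 1.444 to 1.454, lay below the NG ratios, 1.472 to 1.476, while LG ran from 1.430 to 1.472 and CAR from 1.458 to 1.499.

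The whole set was read in each library as the median deviation of its members from their mean over the 12 libraries, on the log2 scale. It was -0.12, -0.08 and -0.09 in LGCAR, -0.07, -0.03 and 0.11 in LG, 0.12, -0.04 and -0.03 in CAR, and 0.01, 0.08 and 0.16 in NG. The LGCAR libraries lay close together below all other libraries, while LG and CAR each had a library within the range of NG. Summed over the members this was 2679 ± 40.4 CPM in LGCAR, 2869 ± 164 in LG, 2876 ± 158 in CAR and 3001 ± 134 in NG (SD, n = 3 each).

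**Figure D5:**
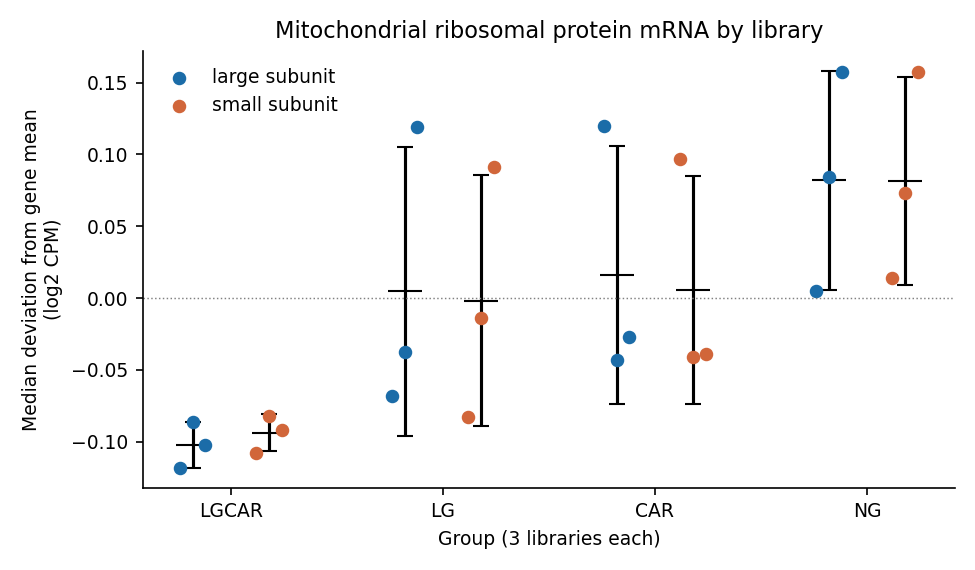
Each point is a library's median deviation of the large-subunit or small-subunit members from their mean over 12 libraries (log2 CPM), with group mean ± SD. In each library both subunits lie close together, and the LGCAR libraries lie between -0.12 and -0.08.

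Inside LG, CAR and NG, libraries with more cytosolic ribosomal RNA had lower member levels. The library with the smallest share of cytosolic ribosomal RNA was also the one with the highest member level in LG (LG 3, 7.91%), CAR (CAR 1, 7.10%) and NG (NG 3, 7.83%). In LGCAR the library with the smallest share (LGCAR 1, 9.32%) had the lowest member level. With this share as a covariate, edgeR called 8 members in LGCAR against NG, 73 were below 0 and the median was -0.15. All-gene shares and medians for the fits with this covariate are not given here. These values therefore do not show a dependence particular to the members. In LGCAR against CAR the same covariate left subunit medians of 0.00188 (large) and -0.00603 (small) and 0 calls, and in LGCAR against LG a large-subunit median of -0.03. The LGCAR shares, 9.32% to 11.5%, all lay above those of CAR, 7.10% to 8.53%, and LG, 7.91% to 9.06%. In these comparisons the covariate could therefore not be separated from the group, and no conclusion is drawn from its medians. In the interaction the medians turned positive with it, 0.13 for the large and 0.09 for the small subunit.

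The other genes of mitochondrial translation gave few calls. The 5 ribosomal proteins that carry other names (DAP3, PTCD3, CHCHD1, AURKAIP1 and GADD45GIP1) had 0 calls with edgeR in LGCAR against NG, 2 with DESeq2 and 0 with limma-voom, 2 members with an unadjusted p under 0.05, and a median of -0.13. Among all genes DESeq2 called 1849 and limma-voom 1161 in this comparison, and 28.9% had an unadjusted p under 0.05 by edgeR. Of 15 translation factors and 4 factors of membrane insertion 0 were called by edgeR, DESeq2 or limma-voom in any comparison with NG. In LGCAR against NG 5 of the 15 and 1 of the 4 had an unadjusted p under 0.05, all lower, against 28.9% of all genes in either direction. The medians of these lists were -0.10 and 0.0032. Of 28 factors of ribosome assembly and RNA modification, 3 (10.7%) were called in LGCAR against NG, all lower, against 4.12% of all genes called lower, and 22 were below 0 with a median of -0.08. MPV17L2, which helps to assemble the large subunit, had 7.81, 8.20 and 8.19 CPM in LGCAR and 12.4, 11.3 and 11.6 CPM in NG (log2 fold change -0.55 with SE 0.114, adjusted p 0.0127 by edgeR). MRM2, which methylates the large ribosomal RNA, averaged 19.95 ± 1.10 CPM in LGCAR and 24.6 ± 1.95 CPM in NG (log2 fold change -0.30 with SE 0.0750, adjusted p 0.0252 by edgeR), and the third was NGRN (-0.25). Without NG 3 or LGCAR 1 none of these calls held (adjusted p up to 0.0659 for MPV17L2), that of MRM2 was lost also without NG 2 or LGCAR 2, and that of NGRN held only with NG 1 left out.

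Of 13 genes of mitochondrial transcription and RNA processing, 2 (15.4%) were called in LGCAR against NG, both lower, against the same 4.12%, and 12 were below 0 with a median of -0.12. TFB2M, which opens the promoters of mitochondrial DNA, had 14.3, 14.9 and 14.7 CPM in LGCAR and 17.3, 19.6 and 20.9 CPM in NG (log2 fold change -0.40 with SE 0.0814, adjusted p 0.0115 by edgeR). HSD17B10, a subunit of the mitochondrial ribonuclease that frees tRNAs, averaged 26.4 ± 1.85 CPM in LGCAR and 32.1 ± 2.02 CPM in NG (log2 fold change -0.29 with SE 0.0779, adjusted p 0.0346 by edgeR). TFB2M lost its call without NG 3 or LGCAR 1 (adjusted p up to 0.0733), and HSD17B10 held its call only with NG 1 left out. Of 10 nuclear regulators 1 was called in LGCAR against NG and 2 in LG against NG, all higher. Of all genes 4.63% and 1% were called higher in these comparisons. PPARGC1A, a coactivator of mitochondrial biogenesis, rose both in LGCAR (0.60, adjusted p 0.0446) and in LG (0.71, adjusted p 0.0456) against NG. It had 4.96, 8.09 and 6.01 CPM in LGCAR, 7.49, 7.05 and 5.89 in LG and 4.60, 4.30 and 3.61 in NG, a low level. MYC rose in LG, with 263 ± 24.4 CPM in LG and 220.1 ± 8.01 CPM in NG (log2 fold change 0.26 with SE 0.0601, adjusted p 0.0398 by edgeR), and had 214 ± 8.56 CPM in LGCAR (SD, n = 3 each). Each of these calls of PPARGC1A and MYC was lost on leaving out 5 of the 6 libraries in turn: PPARGC1A held in LGCAR without NG 1 and in LG without LG 3, and MYC without LG 2.

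The RNA partners of these proteins come from mitochondrial DNA. RNR1, the RNA of the small subunit, had 9213, 10681 and 10580 CPM in LGCAR, 6522, 7784 and 7325 CPM in CAR and 10302, 9119 and 8483 CPM in NG. It was higher in LGCAR than in CAR (log2 fold change 0.49 with SE 0.0828, adjusted p 0.00672 by edgeR). In LGCAR against NG it was not called (log2 fold change 0.13, adjusted p 0.321). RNR2, the RNA of the large subunit, averaged 29979 ± 843 CPM in LGCAR, 23385 ± 2151 CPM in CAR and 25935 ± 1156 CPM in NG. It too was higher in LGCAR than in CAR (log2 fold change 0.36 with SE 0.0703, adjusted p 0.0181 by edgeR), where 0.973% of all genes were called higher. The RNR1 call was lost without LGCAR 2 or LGCAR 3, and that of RNR2 without CAR 3 or any LGCAR library, and both were lost with the share of cytosolic ribosomal RNA in the fit. That share did not overlap between LGCAR and CAR, so it could not be separated from the group here. RNR2 in LGCAR against NG stood at 0.21 (adjusted p 0.0675), and DESeq2 called 1 of the 2 RNAs in that comparison. In CAR against NG both RNAs were lower at an unadjusted p under 0.05 by edgeR, as 4.53% of all genes were in either direction. There edgeR called 0 of them after adjustment and DESeq2 called 1. Of the 13 mRNAs of mitochondrial DNA, 12 were below 0 in LGCAR against NG with a median of -0.18, against 48.3% of all genes below 0. Only 1 of the 13, CYTB, was called (log2 fold change -0.28 with SE 0.0747, adjusted p 0.0317 by edgeR), where 4.12% of all genes were called lower. This call held with NG 1 left out and was lost with any other of the 6 libraries left out. CYTB had 3069, 3069 and 2929 CPM in LGCAR and 3413, 3652 and 3961 CPM in NG. In LGCAR against CAR, where 0.675% of all genes were called lower, COX3 and CYTB were called lower, with log2 fold changes of -0.35 and -0.31 (adjusted p 0.0472 and 0.0447 by edgeR). With the ribosomal RNA covariate neither call held, and with single libraries left out COX3 stayed called only without CAR 2 and CYTB in no case.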

How the data were processed

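Per the labels' protocols, Trizol gave total RNA, from which libraries were prepared by the NEBNext Ultra II Directional protocol. The deposited values are counts per gene symbol, whole numbers in 1 table for each of 12 libraries, made by the authors. The submitters' processing notes name GRCh38 and the tools STAR, Salmon, fastp and GATK. What each tool did, its version and any use of strand in counting: not given in the sources used here.

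CPM (TMM scaling) and log2 fold changes came from edgeR 4.0.16 in R 4.3.3. Genes that passed filterByExpr with the 4 groups were tested with the robust quasi-likelihood test, fitted to all 12 libraries with 1 mean per group and adjusted over all 15104 genes by the method of Benjamini and Hochberg. The common biological coefficient of variation was 6.94%. Members were called at an adjusted p under 0.05. Pairs of libraries of a group differed by more than counting noise (chi-square per degree of freedom 2.79 to 23.8).

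Levels per kb used 1 transcript per gene from GENCODE 29, and positions come from RefSeq for GRCh38.p14, which held all 78 members, 70 of them with a promoter window. Alternatives were DESeq2 1.42.0, limma-voom (limma 3.58.1), other scalings and filters, the groups compared alone, a replicate block, ribosomal RNA as a covariate or left out, and leaving out single libraries. Chosen after seeing the data were the removal of NG 1 together with LGCAR 3 and a correction for GC content and transcript length. The test was checked on simulated data. Python 3.11.15 with matplotlib 3.10.9 drew the figures.

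Named members were those called with the smallest p (up to 6 in each direction against NG, up to 3 elsewhere, or the 2 with the smallest p where none was called), the 3 highest and 2 lowest levels of each subunit, and MRPS18A, MRPS18B, MRPS18C, MRPS30, MRPS36 and MRPL12, with up to 2 called genes of each other list. The remaining called members, NGRN, MRPL46 and MRPL19 fall outside it and were named after their values were seen. The members and the lists were chosen with earlier results of these data known.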

Additional observations from a re-analysis of the deposited data

How the results depend on the processing

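Of the alternative values of the named members 2732 kept their side of the threshold, 53 lost a call and 40 gained one. The sign changed in 148 of them, none called before or after, 6 in LGCAR against NG (MRPL42 and MRPS14) and 52 in the interaction. In LGCAR against NG the count of 14 lower members was 29 without a filter on low counts and 46 with the groups compared alone. DESeq2 gave 24 and limma-voom 10. With ribosomal RNA content as a covariate the count was 8, and without NG 1 and LGCAR 3 together it was 4. The small-subunit median was -0.089 with the trend on GC content and length removed. Leaving out 1 library gave 0 to 24. Calls among all genes moved as well, from 1322 with edgeR to 1849 with DESeq2 and 1161 with limma-voom. Apart from the groups compared alone, all-gene shares for the other settings are not given here. The changes in these counts are therefore not shown to be particular to the members. In LG against NG the count of 0 was 1 with DESeq2, 2 with the ribosomal RNA covariate, 3 with the GC and length trend removed, and 0 to 2 with a library left out. Among all genes, edgeR called 261 in that comparison and DESeq2 380. In LGCAR against CAR the count of 1 was 3 with library totals only, 2 without a filter, 2 at a mean of at least 5 CPM, 0 with the ribosomal RNA covariate, 0 without NG 1 and LGCAR 3, 3 with the GC and length trend removed, and 0 with any library left out. The ribosomal RNA covariate moved the large-subunit median to -0.15 in CAR against NG and to -0.031 in LGCAR against LG, both subunit medians in LGCAR against CAR to 0.00188 (large) and -0.00603 (small), and those of the interaction to 0.13 and 0.093. The share of ribosomal RNA did not overlap between LGCAR and either CAR or LG, so in those comparisons it could not be separated from the group. The large-subunit median of the interaction was also above 0 without NG 1, CAR 1 or LG 3, and the small-subunit median without CAR 1 (at most 0.019). Except for what the covariate and the smaller number of libraries change by construction, the cause was not tested.

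With replicate number as a block, 7 members were called in LGCAR against NG, 6 of them among the 14, and 0 in LGCAR against CAR. Only 2 of 18 pairs of libraries with the same number correlated above 0.1 in their deviations from the group means (lowest -0.11, highest 0.14), so the numbers were not taken as a pairing.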
